A study of Mus musculus with 12 samples.

Results

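The genes described here are 40 genes of the type I interferon response, followed in natural and induced regulatory T cells (Treg) of mice. They were named by symbol and not by their values, and all 40 were found among the 23337 gene symbols counted. All 40 were also among the 12038 genes that passed the filter on low counts. RNA was sequenced from C57BL/6 mice aged 8 weeks, with 3 libraries in each of 4 groups. The groups were induced Treg (iTreg) labelled KO, iTreg labelled WT, natural Treg (nTreg) labelled KO and nTreg labelled WT. iTreg were CD4 T cells kept for 5 days with IL2 and TGFbeta and then isolated by their GFP, while nTreg were sorted as CD4+ GFP+ cells from spleen and lymph nodes. KO stands for Hrd1 flox/flox and WT for Hrd1 +/flox, and both labels carry FoxP3-cre+-GFP, which deletes floxed alleles in cells that express Foxp3. WT-labelled cells may therefore also lack a copy of Hrd1, and no group had both Hrd1 alleles free of floxed sites. Whether each library came from a mouse of its own is not stated in the labels, and a p-value here sets differences against the spread between libraries alone.

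Type I interferons bind the receptor chains IFNAR1 and IFNAR2, which signal through the kinases JAK1 and TYK2. These phosphorylate STAT proteins, among them STAT2, which join IRF9 in a complex that binds the interferon-stimulated response element (ISRE) in the promoters of responding genes. The induced proteins sense viral nucleic acid, block viral translation and replication, or, as USP18 does, damp the signal at the receptor. T cells of uninfected mice carry the receptor and are known to express many of these genes at a basal level.

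The ISRE letters GAAANNGAAA, read on both strands, were searched in RefSeq promoter windows (GRCm38.p6, from 250 bases before to 50 bases after an annotated start; matches may overlap). Of the 31 members with a window, 12 held a match (38.7%), against 3.76% of the 8653 tested genes with a window and 3.44% of all 32851 windows. Another motif, GAS (TTCNNNGAA, a motif of interferon-gamma responses), was found in 8 of the 31 members (25.8%) and in 8.47% of the tested genes. Dhx58, Zbp1, Oas2, Usp18, Parp9, Parp14, Mx1, Mx2 and Rtp4 had no entry. A match describes letters only and is not a shown binding site. Windows are shown for 6 genes, which of the members with an entry were among those of smallest p in the most comparisons, with ties broken by the smallest p. Zbp1 and Usp18, which have no entry, are therefore not shown. Capitals mark ISRE matches.
Oas1a, chr5:120907476-120907775, minus strand, matches starting at -20 and -14 from the start: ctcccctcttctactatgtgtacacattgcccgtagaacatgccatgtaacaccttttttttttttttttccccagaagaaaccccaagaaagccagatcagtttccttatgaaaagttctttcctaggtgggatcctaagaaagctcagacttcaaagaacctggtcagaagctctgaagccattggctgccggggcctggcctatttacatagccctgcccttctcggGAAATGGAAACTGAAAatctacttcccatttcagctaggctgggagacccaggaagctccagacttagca
Trim30a, first of its 2 windows, chr7:104465144-104465443, minus strand, match starting at -36: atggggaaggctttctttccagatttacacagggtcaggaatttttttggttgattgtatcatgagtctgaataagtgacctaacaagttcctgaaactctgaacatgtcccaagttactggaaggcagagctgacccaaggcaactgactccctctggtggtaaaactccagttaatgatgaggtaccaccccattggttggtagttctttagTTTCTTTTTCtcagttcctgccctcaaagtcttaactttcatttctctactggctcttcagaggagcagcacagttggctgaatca
Samd9l, chr6:3399522-3399821, minus strand, no match: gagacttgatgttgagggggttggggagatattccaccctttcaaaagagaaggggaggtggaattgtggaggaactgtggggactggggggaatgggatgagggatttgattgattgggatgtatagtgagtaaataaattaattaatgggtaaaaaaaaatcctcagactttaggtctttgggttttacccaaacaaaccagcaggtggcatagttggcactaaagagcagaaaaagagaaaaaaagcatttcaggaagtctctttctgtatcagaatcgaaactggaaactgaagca
Sp100, first of its 2 windows, chr1:85649738-85650037, plus strand, no match: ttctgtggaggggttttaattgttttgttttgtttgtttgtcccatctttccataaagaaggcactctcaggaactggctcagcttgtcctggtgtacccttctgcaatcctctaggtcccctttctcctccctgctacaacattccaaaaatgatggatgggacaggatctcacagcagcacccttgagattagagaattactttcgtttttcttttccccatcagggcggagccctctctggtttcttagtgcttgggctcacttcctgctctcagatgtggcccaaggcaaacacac
Irf7, chr7:141266375-141266674, minus strand, no match: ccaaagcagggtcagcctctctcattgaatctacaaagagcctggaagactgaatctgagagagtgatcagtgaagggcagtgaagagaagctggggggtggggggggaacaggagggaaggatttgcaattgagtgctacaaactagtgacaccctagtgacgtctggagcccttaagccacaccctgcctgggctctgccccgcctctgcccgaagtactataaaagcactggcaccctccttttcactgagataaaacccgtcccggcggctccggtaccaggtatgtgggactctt
Irf9, first of its 2 windows, chr14:55603735-55604034, plus strand, no match: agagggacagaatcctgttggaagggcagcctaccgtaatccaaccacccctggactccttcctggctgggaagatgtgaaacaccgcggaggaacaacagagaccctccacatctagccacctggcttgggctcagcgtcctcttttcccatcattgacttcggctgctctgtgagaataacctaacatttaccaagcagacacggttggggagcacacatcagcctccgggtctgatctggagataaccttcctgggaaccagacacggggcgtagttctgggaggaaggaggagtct

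The other 10 members with a match are shown as stretches of 30 bases around the first match, in the gene's own direction, with each match that lies wholly inside in capitals. Where the capitals begin with T, the match is on the opposite strand.
Ifih1, chr2:62646206-62646235: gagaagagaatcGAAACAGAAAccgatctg
Ddx58, chr4:40239804-40239833: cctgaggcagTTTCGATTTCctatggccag
Stat2, chr10:128270266-128270295: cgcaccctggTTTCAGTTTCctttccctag
Ifit1, chr19:34640775-34640804: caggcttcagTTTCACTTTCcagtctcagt
Ifit3, chr19:34583363-34583392: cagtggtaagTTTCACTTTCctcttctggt
Oas3, chr5:120777715-120777744: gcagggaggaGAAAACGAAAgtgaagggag
Isg15, chr4:156200877-156200906: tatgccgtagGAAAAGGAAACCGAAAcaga
Rsad2, chr12:26456553-26456582: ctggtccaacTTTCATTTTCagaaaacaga
Bst2, chr8:71537583-71537612: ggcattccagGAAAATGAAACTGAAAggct
Eif2ak2, chr17:78882535-78882564: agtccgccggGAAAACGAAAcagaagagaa

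Total counts ranged from 6763458 to 15462894 reads per library. Syvn1, the gene of Hrd1, had 54.6, 73.1 and 63.1 CPM (reads of the gene per 1000000 reads of the scaled library total) in iTreg labelled KO, against 61.6, 72.2 and 101 CPM in iTreg labelled WT. In nTreg it had 146, 137 and 130 CPM with the KO label, against 73.7, 87.2 and 75.5 CPM with the WT label, so that the KO-labelled libraries were the higher ones (a log2 fold change of 0.80 with an SE of 0.17 and an adjusted p of 0.023). Whole-gene counts do not show which exons were deleted, so the groups are named by their labels throughout. The Treg markers (Foxp3, Cd4, Cd3e, Il2ra, Ctla4 and Ikzf2) summed to 3797 to 5087 CPM in every library. This even sum covered opposite moves. Il2ra had 2445 to 3592 CPM in iTreg against 794 to 1221 in nTreg. Ikzf2 had 21.3 to 34.5 CPM in iTreg against 796 to 1274 in nTreg, and Foxp3 191 to 393 against 565 to 668. In the test described below, 5 of the 6 were called lower and 1 higher in iTreg with each label. The shares of all genes are given there. The 12 macrophage markers summed to 5.11 to 7.08 CPM in iTreg KO, 5.18 to 6.70 in iTreg WT, 54.8 to 695 in nTreg KO and 76.8 to 314 in nTreg WT, highest in both nTreg libraries numbered 2.

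In all 4 groups Ifi47, an immunity-related GTPase, had the highest level of the 40 genes per length of merged exons, followed by Irf1. Ifi47 averaged 174 ± 17.6 CPM per kb in iTreg KO, 146 ± 16.7 in iTreg WT, 109 ± 8.16 in nTreg KO and 112 ± 6.36 in nTreg WT (SD, n = 3). Irf1, a transcription factor that both interferon types induce, averaged 80.2 ± 22.0, 48.3 ± 6.93, 90.5 ± 3.11 and 97.8 ± 4.10 CPM per kb in the same groups. Ifi44 had the lowest level in each group, at most 0.381 ± 0.146 CPM per kb, in nTreg WT. In nTreg WT Samd9l, a cytosolic restriction factor, lay at 97.0 ± 4.48 CPM per kb, a level that did not differ from that of Irf1 beyond their SDs.

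**Figure D1:**
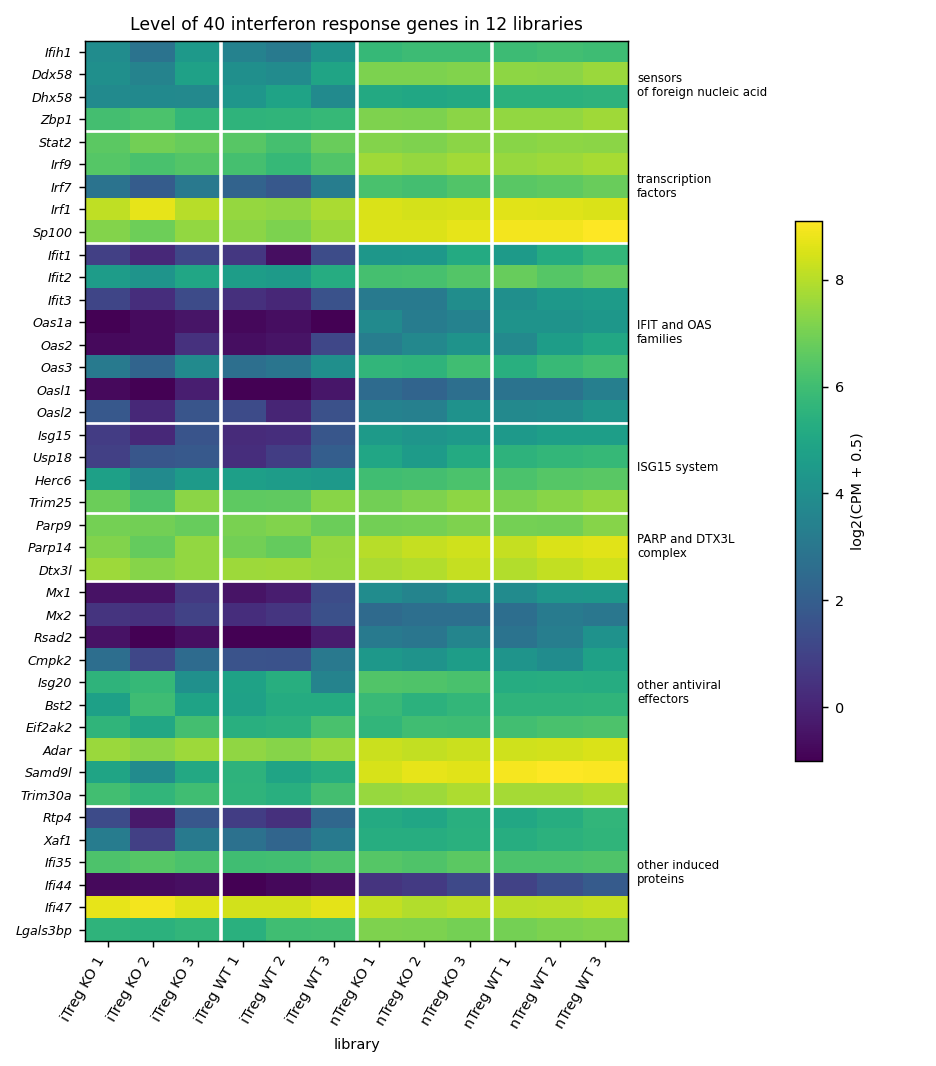
Heat map of log2(CPM + 0.5) for the 40 genes (rows, grouped by role) in the 12 libraries (columns, iTreg KO, iTreg WT, nTreg KO, nTreg WT from left to right). The IFIT and OAS rows are dark in the 6 iTreg libraries, while Ifi47 is brighter there than in the 6 nTreg libraries.

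The largest contrast among these genes was between the 2 kinds of Treg, and most members were far lower in iTreg. Every iTreg library came from cultured cells, and no culture is stated for any nTreg library. Treg kind and culture therefore cannot be separated in any comparison of iTreg with nTreg, and the share of each was not tested. In the quasi-likelihood test of edgeR, adjusted over the 12038 genes after Benjamini and Hochberg (threshold 0.05), 32 of the 40 were lower and 1 was higher in iTreg than in nTreg with the KO label. With the WT label, 33 were lower and 1 was higher. The background was large: 29.8% of all tested genes were lower and 32.1% higher with the KO label, and 30.4% were lower and 34.8% higher with the WT label. The median log2 fold change of the 40 was -1.90 with the KO label and -2.17 with the WT label, beside medians of 0.01 and 0.05 over all tested genes. The same 32 genes were lower with both labels, and Irf1 was lower with the WT label alone; its effect in the 2 labels is compared further on. Ifi47 was the gene higher with both. In bulk RNA, fewer cells that express a gene and less RNA of it per cell cannot be told apart.

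Of the members, 6 (Oas1a, Oas2, Oasl1, Mx1, Rsad2 and Ifi44) passed the filter, about 0.975 CPM in 3 libraries, through their nTreg libraries alone and so had to differ. Of the other 34, 26 were lower and 1 higher with the KO label (median -1.57), and 27 were lower and 1 higher with the WT label (median -1.83).

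All 4 sensors of foreign nucleic acid were lower in iTreg with both labels. Ddx58, which encodes the RNA sensor RIG-I, had 15.7, 10.9 and 27.2 CPM in iTreg KO, against 138, 138 and 145 CPM in nTreg KO. It had 15.8, 14.3 and 29.1 CPM in iTreg WT, against 167, 164 and 191 CPM in nTreg WT. All iTreg libraries lay far below all nTreg libraries (log2 fold change -2.96, SE 0.31, adjusted p = 7.2e-06 with the KO label; -3.14, SE 0.31, adjusted p = 3.5e-06 with the WT label; edgeR). Zbp1, a sensor of left-handed nucleic acid, had 67.0, 75.3 and 50.9 CPM in iTreg KO, against 143, 138 and 161 CPM in nTreg KO. It had 46.8, 49.0 and 53.7 CPM in iTreg WT, against 175, 177 and 203 CPM in nTreg WT. The groups did not overlap, and the log2 fold changes were -1.20 (SE 0.14, adjusted p = 1.3e-05) with the KO label and -1.89 (SE 0.14, adjusted p = 3.3e-07) with the WT label. Ifih1, which encodes the RNA sensor MDA5, and Dhx58, which encodes their regulator LGP2, had log2 fold changes of -2.03 and -1.33 with the KO label and of -2.37 and -1.09 with the WT label.

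Among the transcription factors, Irf7, the amplifier of the interferon response, differed most. It had 6.78, 3.38 and 7.95 CPM in iTreg KO, against 72.7, 67.4 and 81.7 CPM in nTreg KO (log2 fold change -3.59, SE 0.35, adjusted p = 4.4e-06, edgeR). The iTreg WT libraries had 4.20, 2.94 and 9.31 CPM, against 91.9, 95.4 and 110 CPM in nTreg WT (-4.20, SE 0.36, adjusted p = 1.1e-06). Not 1 iTreg library came near an nTreg library. Irf9, the DNA-binding partner of STAT2, had 86.0, 72.7 and 84.2 CPM in iTreg KO, against 201, 180 and 207 CPM in nTreg KO (-1.27, SE 0.14, adjusted p = 1e-05). The iTreg WT libraries had 69.2, 54.5 and 81.0 CPM, against 184, 199 and 220 CPM in nTreg WT (-1.56, SE 0.14, adjusted p = 1.6e-06). Its groups did not overlap, but its difference was smaller than that of Irf7. Sp100, a nuclear body protein grouped here with these factors, had 150, 117 and 174 CPM in iTreg KO, against 375, 381 and 419 CPM in nTreg KO (-1.41, SE 0.15, adjusted p = 8.8e-06). The iTreg WT libraries had 161, 137 and 190 CPM, against 487, 490 and 549 CPM in nTreg WT (-1.65, SE 0.15, adjusted p = 2.1e-06). These values did not overlap either. Stat2 was lower by a smaller amount, -0.48 (SE 0.15, adjusted p = 0.013) with the KO label and -0.84 (SE 0.15, adjusted p = 0.00036) with the WT label; without iTreg KO replicate 1 the first had an adjusted p of 0.058.

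Irf1 did not pass the test between iTreg and nTreg under the KO label (with a log2 fold change of -0.17, SE 0.16, adjusted p = 0.37) and was lower with the WT label (-1.02, SE 0.17, adjusted p = 0.00019). Its values were 278, 419 and 259 CPM in iTreg KO, 180, 173 and 224 CPM in iTreg WT, 374, 351 and 355 CPM in nTreg KO and 402, 393 and 371 CPM in nTreg WT. One iTreg KO library thus lay above every nTreg library. That was iTreg KO replicate 2, and without it Irf1 was lower in iTreg with the KO label too (-0.42, adjusted p = 0.0089).

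Of the 8 IFIT and OAS genes, 3 (Oas1a, Oas2 and Oasl1) are among those that passed the filter through nTreg alone and are described by their values. The other 5 were all lower in iTreg with both labels, with median log2 fold changes of -2.59 (KO label) and -3.26 (WT label). IFIT proteins bind viral RNA and OAS enzymes make the signal that activates RNase L. Oas1a was nearly absent from iTreg, with 0, 0.106 and 0.238 CPM in iTreg KO, against 13.6, 9.07 and 10.7 CPM in nTreg KO. It had 0.0750, 0.151 and 0 CPM in iTreg WT, against 17.9, 17.6 and 19.6 CPM in nTreg WT. These levels rest on 4 reads in iTreg KO against 360 in nTreg KO, and on 3 reads in iTreg WT against 456 in nTreg WT. The ratio of nTreg to iTreg was 84.3 (95% counting interval 32.6 to 311) with the KO label and 233 (79.2 to 1134) with the WT label, and intervals here cover counting error only. The fitted log2 fold changes, -6.34 (SE 0.49) and -7.66 (SE 0.50), rest on the same few reads. Oas2 had 0.104, 0.106 and 0.874 CPM in iTreg KO, against 9.27, 12.7 and 17.8 CPM in nTreg KO, and 0.150, 0.226 and 1.72 CPM in iTreg WT, against 13.0, 24.2 and 32.8 CPM in nTreg WT. In each group the library numbered 3 was its highest. Ifit2 was the least changed of this family (-1.62 and -1.82 with the KO and WT label), and Oasl1, with 6 and 3 reads in iTreg KO and iTreg WT, was among the lowest.

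In the ISG15 system, Isg15, Usp18 and Herc6 were lower with both labels and Trim25 was not called. ISG15 is a ubiquitin-like protein, HERC6 its ligase in the mouse, USP18 the protease that removes it and a brake on the interferon receptor, and TRIM25 a ligase that acts on RIG-I. Usp18 had 1.36, 2.75 and 3.02 CPM in iTreg KO, against 31.1, 22.6 and 35.7 CPM in nTreg KO (log2 fold change -3.62, SE 0.41, adjusted p = 1.4e-05, edgeR). In iTreg WT it had 0.750, 1.28 and 3.52 CPM, against 45.2, 50.5 and 54.0 CPM in nTreg WT (-4.79, SE 0.43, adjusted p = 1.6e-06). The groups were far apart under both labels. Trim25 had log2 fold changes of -0.28 (SE 0.25, adjusted p = 0.35) with the KO label and -0.44 (SE 0.25, adjusted p = 0.15) with the WT label.

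In the PARP and DTX3L group, Parp14 and the ligase Dtx3l were lower with both labels, while Parp9, the partner of DTX3L, was not called. Parp9 had 127, 124 and 108 CPM in iTreg KO, 135, 144 and 113 CPM in iTreg WT, 124, 125 and 140 CPM in nTreg KO and 127, 123 and 152 CPM in nTreg WT. Its log2 fold changes were -0.11 (SE 0.12) with the KO label and -0.04 (SE 0.12) with the WT label. Parp9 and Dtx3l lie on opposite strands and share 458 exon bases in GENCODE M21, so without a stated strand setting reads from that stretch cannot be told apart.

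Of the 10 other antiviral effectors, Mx1 and Rsad2 passed the filter through nTreg alone. Among the other 8, 5 were lower with both labels, and Isg20, Bst2 and Eif2ak2 were not called. Samd9l had 29.3, 14 and 34 CPM in iTreg KO, against 358, 422 and 402 CPM in nTreg KO (log2 fold change -3.93, SE 0.28, adjusted p = 4e-07, edgeR). The iTreg WT libraries had 45.7, 29.2 and 38.8 CPM, against 499, 546 and 534 CPM in nTreg WT (-3.80, SE 0.27, adjusted p = 3e-07). Of the members well counted in iTreg, it had the smallest p with both labels. Trim30a, a TRIM protein, had 65.3, 50.1 and 64.4 CPM in iTreg KO, against 188, 195 and 231 CPM in nTreg KO (-1.77, SE 0.17, adjusted p = 4.6e-06). In iTreg WT it had 46.7, 40.8 and 67.1 CPM, against 214, 213 and 236 CPM in nTreg WT (-2.10, SE 0.18, adjusted p = 9.7e-07). The groups did not overlap, but near-identical Trim30 copies may share reads. Rsad2, which encodes viperin, was counted with 4 reads in each iTreg group, and Mx1, whose C57BL/6 allele is known to be defective, was at most 2.08 CPM in any iTreg library. Cmpk2, the neighbour of Rsad2, was lower by 2.27 and 2.24 on the log2 scale with the KO and WT label, and without the 3 libraries with Xist reads its WT-label adjusted p was 0.052.

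Of the 6 other induced proteins, Ifi44 passed the filter through nTreg alone. Lgals3bp, Rtp4 and Xaf1 were lower with both labels, Ifi35 was not called and Ifi47 was higher. Ifi47 had 422, 479 and 394 CPM in iTreg KO, against 288, 248 and 271 CPM in nTreg KO (log2 fold change 0.68, SE 0.11, adjusted p = 0.00025, edgeR). In iTreg WT it had 340, 336 and 409 CPM, against 266, 271 and 295 CPM in nTreg WT (0.38, SE 0.11, adjusted p = 0.0098). Every iTreg library lay above every nTreg library of its label. Lgals3bp, a secreted glycoprotein, had 47.2, 44.2 and 49.9 CPM in iTreg KO, against 140, 136 and 127 CPM in nTreg KO (-1.51, SE 0.15, adjusted p = 4.9e-06). In iTreg WT it had 41.8, 64.3 and 66.1 CPM, against 128, 138 and 146 CPM in nTreg WT (-1.26, SE 0.15, adjusted p = 1.5e-05). The groups were again apart.

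**Figure D2:**
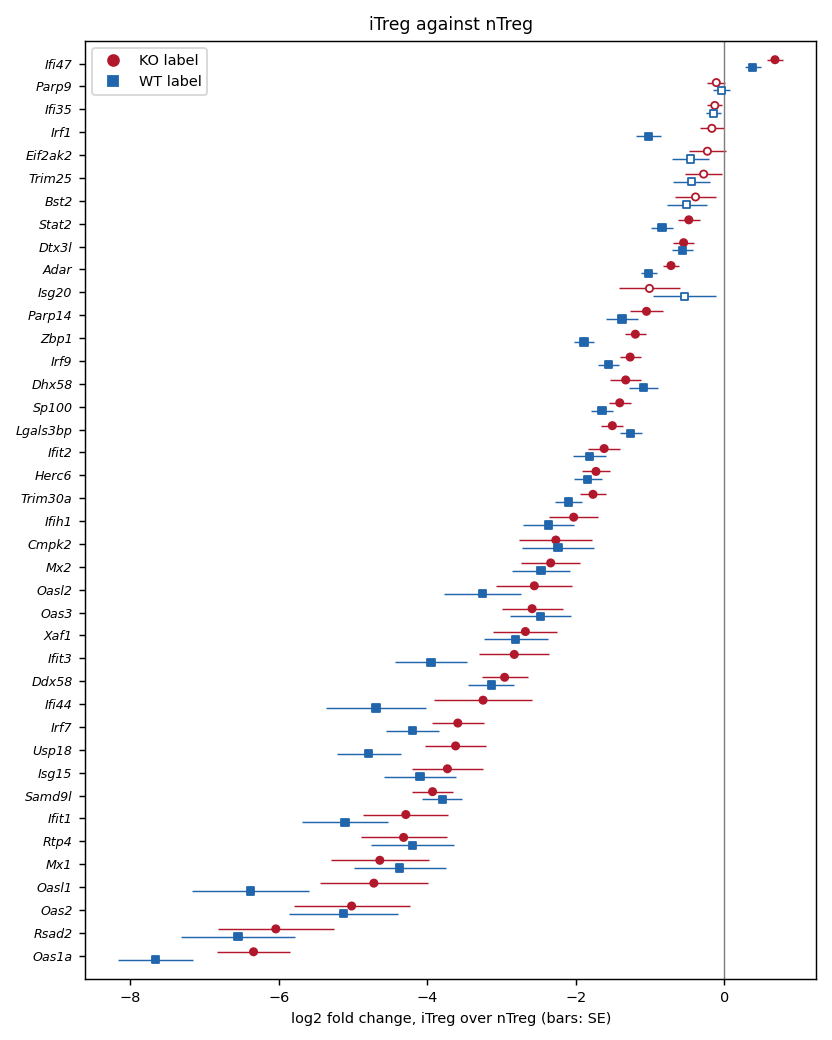
Log2 fold change of iTreg over nTreg for each of the 40 genes (horizontal axis; bars, SE), with the KO label (red circles) and the WT label (blue squares); filled symbols had an adjusted p under 0.05. With the KO label the values run between -6.34 (Oas1a) and 0.68 (Ifi47).

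The 12 members with an ISRE match had a median log2 fold change of -2.71 with the KO label and -2.81 with the WT label. The 19 members with a window and no match had medians of -1.51 and -1.65. With and without a match, members of all sizes of difference occurred: Bst2 and Eif2ak2 hold the letters shown above and were not called, while Samd9l, with none, was among the most changed. Without the members that passed the filter through nTreg alone, the medians were -2.31 with a match (10 genes) and -1.41 without (17 genes) under the KO label, and -2.43 and -1.56 under the WT label. The split by GAS ran the other way. The 8 members with a GAS match had medians of -0.56 (KO label, 3 called lower) and -0.78 (WT label, 4 called lower). The 23 without a match had -2.56 and -2.48, and 21 of them were called lower with each label. These counts include members that passed the filter through nTreg alone. Without those, the medians with a GAS match were -0.39 (KO label, 2 of 7 called lower) and -0.54 (WT label, 3 of 7). Those without a match were -2.15 and -2.30, with 18 of 20 called lower under each label. None of these differences between medians was tested.

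Of 15 receptor and signalling genes, 9 were lower, 1 was higher and 5 were not called in iTreg with each label, beside 29.8% (KO label) and 30.4% (WT label) of all genes called lower. Their median log2 fold changes were -0.56 with the KO label and -0.73 with the WT label. Ifnar1 averaged 119 CPM in iTreg KO against 284 CPM in nTreg KO (-1.25, SE 0.17, adjusted p = 5.2e-05), and Ifnar2 63.0 against 103 CPM (-0.71, SE 0.18, adjusted p = 0.0051). Jak1 had a log2 fold change of -0.97 and Tyk2 of -1.09 with the KO label, and of -1.28 and -1.29 with the WT label. Irf3, the factor that turns on interferon genes, was lower by 0.56 and 0.90 on the log2 scale. Ifngr1, a chain of the interferon gamma receptor, had -1.36 with the KO label and -0.73 with the WT label. Socs3, an inhibitor of cytokine signalling, had -1.39 and -2.21. The gene higher with both labels was Irf8, a factor also tied to interferon gamma, which averaged 1218 CPM in iTreg KO against 46.0 CPM in nTreg KO (4.72, SE 0.30) and 742 CPM in iTreg WT against 43.1 CPM in nTreg WT (4.11, SE 0.29).

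Ifnb1, Ifna1, Ifna2, Ifna4, Ifna5 and Ifnk, genes for type I interferons themselves, had 0 reads in all 12 libraries. For a count of 0, 3 reads of a library's total were taken as the upper limit, a conventional counting bound and not an absolute one. Ifng, the type II interferon gene, averaged 28.9 CPM in iTreg KO against 4.15 CPM in nTreg KO (2.82, SE 0.65, adjusted p = 0.0024), and 16.7 CPM in iTreg WT against 8.62 CPM in nTreg WT (0.99, SE 0.61, adjusted p = 0.18). Of 14 tested genes of nucleic acid sensing, 9 were lower and 2 higher with the KO label and 8 were lower and 2 higher with the WT label; Rnaseh2b, a subunit of RNase H2, rose by 1.69 and 1.72 on the log2 scale, and the kinase gene Ikbke had -1.74 and -1.75. The kinase gene Irak4 had -0.92 with the KO label and -1.27 with the WT label, the RNA receptor gene Tlr7 -1.61 and -2.90, and Unc93b1, which carries such receptors to endosomes, -1.26 and -0.69. All 3 were called lower with both labels. Of 56 other tested interferon-induced genes, 39 were lower and 11 higher with the KO label (median -1.32) and 42 were lower and 8 higher with the WT label (median -1.40). Of all genes, 29.8% were lower and 32.1% higher with the KO label, and 30.4% and 34.8% with the WT label. In both lists some genes passed the filter through 1 Treg kind alone and so had to differ. Among them were Tlr9 (at most 0.829 CPM in iTreg), Ifi204 (0 in iTreg) and, the other way, Ifitm1 (at most 0.886 CPM in nTreg). Of the 56, Slfn8 was among the lower ones, at 11.5 CPM in iTreg KO against 129 CPM in nTreg KO and 12 CPM in iTreg WT against 199 CPM in nTreg WT. Ddx60, a helicase gene, averaged 0.990 CPM in iTreg KO against 53.0 CPM in nTreg KO. Uba7, the activating enzyme of ISG15, had -2.06 and -2.16, the guanylate-binding protein gene Gbp7 -3.58 and -3.47, and Nlrc5, a regulator of MHC class I genes, -1.46 and -2.24, with the KO and the WT label in each case.

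Markers of other cells moved with the kind of Treg in both directions. Of the macrophage markers, 6 of 12 were at 0 in all iTreg KO libraries and 6 of 12 in all iTreg WT libraries. Without both nTreg libraries numbered 2, 32 members were lower with the KO label and 33 with the WT label. The nTreg libraries kept there still had macrophage sums of 54.8 and 135 CPM (KO label) and 76.8 and 147 CPM (WT label). That fit is therefore no test of the part of macrophage RNA. The B cell markers summed to 0.845 to 1.75 CPM in iTreg KO, 0.994 to 3.09 in iTreg WT, 16.5 to 17.2 in nTreg KO and 28.4 to 34.0 in nTreg WT. The 9 markers of plasmacytoid dendritic cells, cells known for making type I interferon, summed to 86.8 to 120 CPM in iTreg KO, 93.8 to 104 in iTreg WT, 222 to 236 in nTreg KO and 271 to 285 in nTreg WT; their defining gene Siglech was at 0 in iTreg and at most 0.755 CPM in nTreg, and Bst2 is both a marker and a member. Most of this sum came from Pacsin1 and Bst2, and Tcf4 of the same list ran the other way, at 10.9 to 17.7 CPM in iTreg KO, 13.6 to 18 in iTreg WT, 5.18 to 5.92 in nTreg KO and 4.28 to 7.93 in nTreg WT. The sum of the plasma cell markers, among them Prdm1 and Irf4, which Treg also express, was higher in iTreg. It was 908 to 998 CPM in iTreg KO, 730 to 966 in iTreg WT, 254 to 277 in nTreg KO and 166 to 180 in nTreg WT. Irf4 made up most of it, at 721 to 978 CPM in iTreg against 116 to 151 in nTreg. Prdm1 ran the other way, at 1.46 to 4.33 CPM in iTreg against 26.7 to 42.2 in nTreg. Of the 5 tested plasma cell markers, 2 were called higher and 3 lower in iTreg with the KO label. With the WT label 2 were called higher and 2 lower. Conventional dendritic cell sums overlapped, at 10.2 to 59.4 CPM in iTreg KO, 11.9 to 88.7 in iTreg WT, 6.37 to 31.1 in nTreg KO and 8.28 to 14.2 in nTreg WT. NK cell sums were 15.7 to 21.2 CPM in iTreg KO, 10.1 to 26.6 in iTreg WT, 8.52 to 10.3 in nTreg KO and 13.2 to 18.1 in nTreg WT. Erythroid markers were at 0 in every iTreg library and summed to 8.85 to 35.4 CPM in nTreg KO and 3.11 to 4.65 in nTreg WT. The part of the other cell types in the differences was not tested.

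With the KO label, no member passed the test against the WT label in nTreg, but most lay slightly lower. edgeR's quasi-likelihood test called 0 of 40 (5 of 40, or 12.5%, had an unadjusted p under 0.05, against 13.4% of all genes), and DESeq2 also called 0. The background was 2.18% of genes higher and 0.341% lower. Of the 40 log2 fold changes, 36 were negative (47.9% of all genes were negative), and their median was -0.28, with 0.01 over all genes. Leaving out 1 library gave medians of -0.34 to -0.16, with -0.16 both without nTreg KO replicate 2 and without nTreg WT replicate 3. The members' levels move together, so the 36 are not separate observations. In 14 of the 40 members every KO library lay below every WT library (against 14.1% of all genes), and in 1 of the 40, Isg20, every KO library lay above (against 15.7%).

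KO and WT libraries of the same number resembled each other, so the replicate number was also used as a block. With the block, 7 members were lower in nTreg labelled KO: Sp100 (adjusted p = 0.0067), Oas2 (0.014), Usp18 (0.026), Ifit3 (0.027), Ifit2 (0.036), Ddx58 (0.045) and Irf7 (0.049). One, Isg20, was higher (adjusted p = 0.00016). The blocked background was 5.36% of genes higher and 3.64% lower. With the 6 nTreg libraries alone, 9 members were lower and 1 higher, beside 4.65% and 5.54% of genes, and 5 of the 9 were among the 7.

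Isg20, an RNA exonuclease, had 81.9, 79.5 and 72.8 CPM in nTreg KO, against 37.8, 38.6 and 37.9 CPM in nTreg WT. The 2 groups were tight and far apart (log2 fold change 1.04, SE 0.42, adjusted p = 0.30 without the block, edgeR). The shared spread over all 12 libraries includes iTreg, where Isg20 varied more: 46.4, 54.3 and 16.5 CPM in iTreg KO, against 27.4, 39.6 and 11 CPM in iTreg WT. There the block also called it higher under the KO label (with a log2 fold change of 0.60, adjusted p = 0.023), and it did not pass without the block (0.57, SE 0.42, adjusted p = 0.82). In each same-numbered pair of either Treg kind, the KO library was the higher. Between iTreg and nTreg with the KO label Isg20 had a log2 fold change of -1.01 (SE 0.41, adjusted p = 0.051).

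Of the lower members, Sp100 had 375, 381 and 419 CPM in nTreg KO, against 487, 490 and 549 CPM in nTreg WT (log2 fold change -0.38, SE 0.15, adjusted p = 0.28, edgeR). Zbp1 had 143, 138 and 161 CPM in nTreg KO, against 175, 177 and 203 CPM in nTreg WT (-0.33, SE 0.13, adjusted p = 0.30). Oas1a had 13.6, 9.07 and 10.7 CPM in nTreg KO, against 17.9, 17.6 and 19.6 CPM in nTreg WT (-0.73, SE 0.30, adjusted p = 0.32). In all 3 genes the groups did not overlap, and the test over 12 libraries was not passed. With the 6 nTreg libraries alone all 3 were called lower (adjusted p = 0.018 for Sp100, 0.044 for Zbp1 and 0.024 for Oas1a), and Sp100 was also called with the block. Usp18 and Ifit3 had larger differences with wider errors, at -0.75 (SE 0.34, adjusted p = 0.37) and -0.88 (SE 0.41, adjusted p = 0.38). At the other end, Oas3 had -0.02 (SE 0.37), Irf9 -0.04 (SE 0.14) and Ifi47 -0.04 (SE 0.11).

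Upstream of these genes in nTreg, Jak1 had 868, 848 and 943 CPM with the KO label, against 1119, 1107 and 1178 CPM with the WT label (-0.36, SE 0.10, adjusted p = 0.12; 0.0072 with the block). Ifnar1 had 281, 299 and 272 CPM with the KO label, against 336, 346 and 341 CPM with the WT label (-0.26, SE 0.17, adjusted p = 0.53; 0.042 with the block). Both genes were lower in every KO library. Ticam1, which encodes the TLR3 adaptor TRIF, was higher in nTreg labelled KO, with 47.3, 46.5 and 48.4 CPM against 29.1, 26.8 and 34.8 CPM with the WT label (0.65, SE 0.12, adjusted p = 0.0092). Of the marker sums given above, those of B cells, NK cells and plasmacytoid dendritic cells were also lower in every nTreg KO library than in every nTreg WT library. Those of plasma cells and erythroid cells were higher in every nTreg KO library, and macrophage and conventional dendritic cell sums overlapped between the labels. The plasmacytoid dendritic cell difference came mostly from Pacsin1, at 118, 126 and 130 CPM in nTreg KO against 183, 183 and 160 CPM in nTreg WT. Bst2, Ccr9, Tcf4 and Runx2 of that list overlapped between the labels. The plasma cell difference came mostly from Derl3, at 86.7, 94.5 and 66.7 CPM in nTreg KO against 1.77, 2.12 and 1.02 CPM in nTreg WT. Prdm1 was not higher, at 26.7, 31.2 and 34 CPM against 32.9, 36.1 and 42.2 CPM. Of the 5 tested plasma cell markers, 1 was called higher and 0 lower. The part of these cells in the small shifts was not tested. Without both nTreg libraries numbered 2 the members' median was -0.19.

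In iTreg no member passed the test between the labels. edgeR called 0 of 40, with 4 at an unadjusted p under 0.05 (10%, against 7.56% of all genes), and DESeq2 called 1, Irf1 (adjusted p = 0.0072). The background was 0.166% of genes higher and 0.0166% lower; with the block it was 0.673% and 0.274%, and the block called 1 member, Isg20. The median log2 fold change was 0.14, but it was -0.16 without iTreg KO replicate 3, -0.11 without iTreg WT replicate 2, -0.02 without iTreg WT replicate 1 and 0.38 without iTreg WT replicate 3, so its sign rests on single libraries. It was -0.12 without the 3 libraries with Xist reads. Irf1 was the 1 member with all KO libraries above all WT libraries (4.68% of all genes), and none had all below (4.95%).

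The Irf1 values in iTreg given above correspond to a log2 fold change of 0.73 (SE 0.16, adjusted p = 0.17, edgeR). It passed the test in 1 of 6 fits that left out a library, the one without iTreg KO replicate 3 (adjusted p = 0.047). Dhx58 had 13.9, 13.4 and 12.9 CPM in iTreg KO, against 19.2, 28.9 and 13.7 CPM in iTreg WT (-0.62, SE 0.21, adjusted p = 0.47), with the lowest WT library close to the KO libraries. Zbp1 had 0.37 (SE 0.14, adjusted p = 0.53) and Ifi47 had 0.25 (SE 0.11, adjusted p = 0.65), and in both the groups overlapped.

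**Figure D3:**
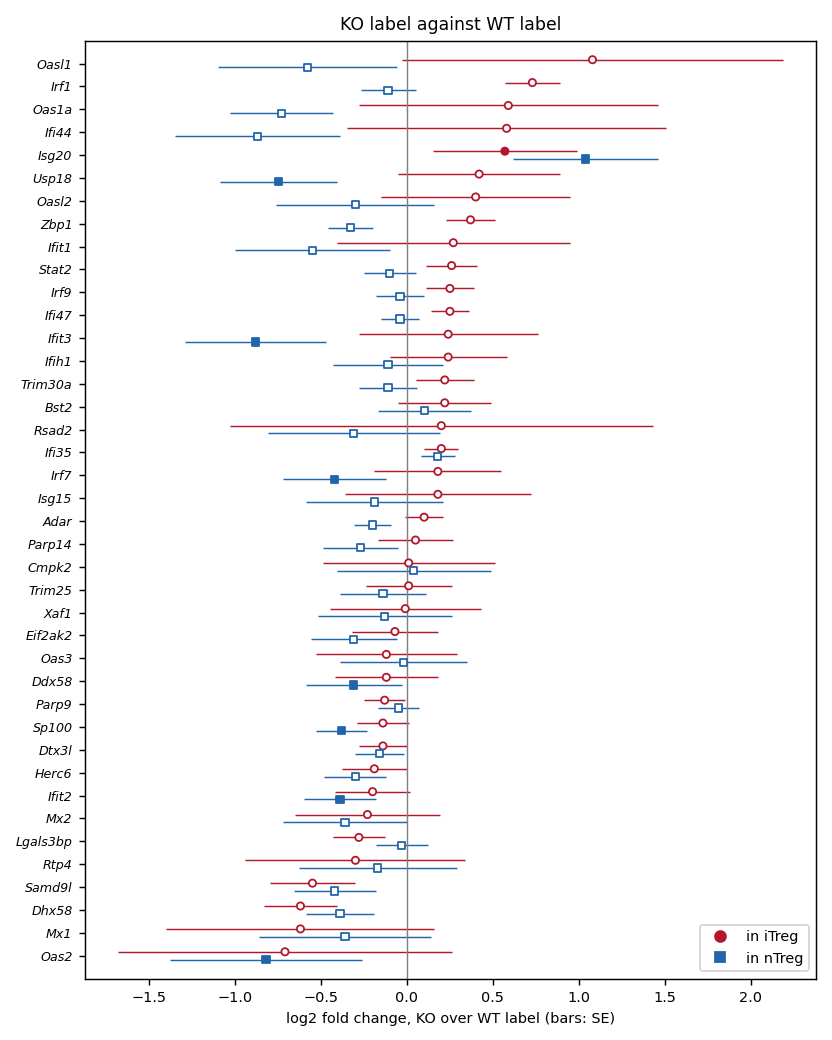
Log2 fold change of the KO over the WT label for each of the 40 genes (horizontal axis; bars, SE), in iTreg (red circles) and nTreg (blue squares); filled symbols had an adjusted p under 0.05 with the replicate block. Most nTreg symbols lie left of 0 (36 of 40), and Isg20 is filled on the right in both.

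The label effect was also compared between the Treg kinds. No member passed the test of the difference in edgeR (2 of 40, or 5%, had an unadjusted p under 0.05, against 7.44% of all genes), while DESeq2 called 2, Irf1 (adjusted p = 0.037) and Zbp1 (adjusted p = 0.048). Over all genes 0.0166% were called higher and 0.274% lower. The median difference of iTreg minus nTreg was 0.24 over the members. It was 0.05 without iTreg KO replicate 3, 0.11 without iTreg WT replicate 1, 0.12 without iTreg WT replicate 2, 0.57 without iTreg WT replicate 3 and 0.38 without iTreg KO replicate 2, and 0.11 without the libraries with Xist reads, so its size rests on single libraries. Irf1 had a difference of 0.84 (SE 0.23, adjusted p = 0.24), Zbp1 of 0.70 (SE 0.19, adjusted p = 0.24), Usp18 of 1.16 (SE 0.58, adjusted p = 0.74) and Adar, an RNA-editing enzyme, of 0.30 (SE 0.15, adjusted p = 0.74). For Irf1 the same test applies to the 2 comparisons of iTreg with nTreg above, so their difference was not shown by edgeR. Adar itself had 193, 162 and 199 CPM in iTreg KO, 171, 154 and 192 CPM in iTreg WT, 313, 291 and 309 CPM in nTreg KO and 335, 342 and 369 CPM in nTreg WT.

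**Figure D4:**
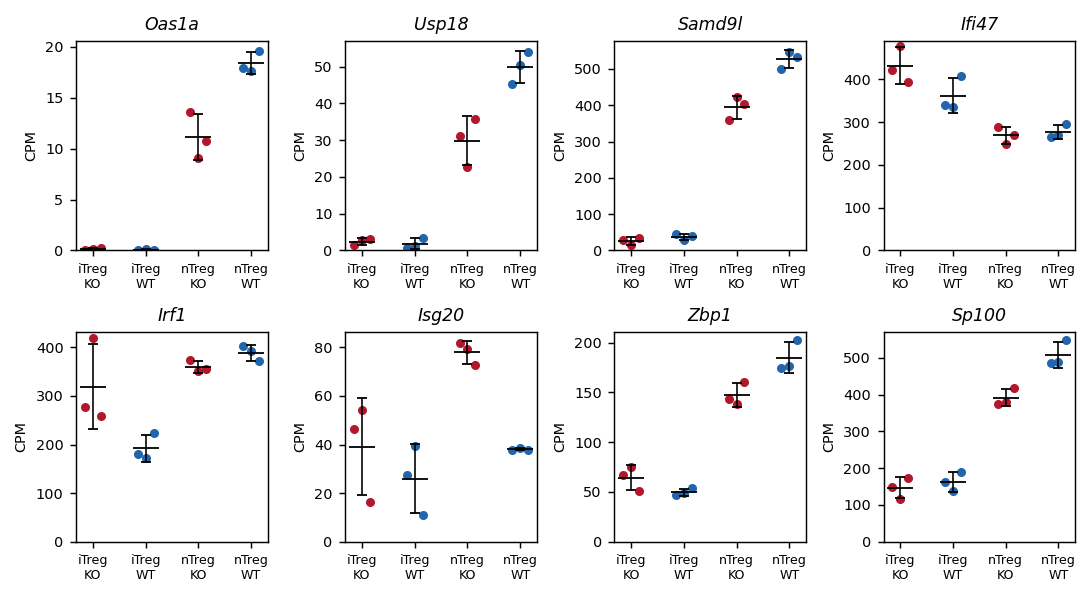
CPM of 8 members in each library (points; KO red, WT blue), with the mean and SD of each group of 3, from left to right iTreg KO, iTreg WT, nTreg KO and nTreg WT. Isg20 averages 78.1 CPM in nTreg KO and 38.1 CPM in nTreg WT, and Ifi47 is higher in iTreg than in nTreg.

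Within a group, the members moved together from library to library, and the libraries numbered 3 stood highest in every group. iTreg KO 3 was the highest of its group for 23 of 40 members (57.5%, against 35.5% of all genes), iTreg WT 3 for 33 (82.5%, against 40.1%), nTreg KO 3 for 29 (72.5%, against 33.0%) and nTreg WT 3 for 32 (80.0%, against 30.9%). The mean level over the members, in log2(CPM + 0.5), was 3.86, 3.48 and 4.06 in iTreg KO, 3.60, 3.54 and 4.17 in iTreg WT, 5.75, 5.70 and 5.96 in nTreg KO and 5.87, 6.04 and 6.22 in nTreg WT. The distance between the Treg kinds was larger than this spread. Xist, which female cells express, had 483 CPM in nTreg KO 3, 729 CPM in nTreg WT 3 and 2027 CPM in iTreg WT 2. In the libraries numbered 1 and 2 it had at most 0.232 CPM in nTreg KO and 0.148 CPM in nTreg WT. It had at most 0.209 CPM in all iTreg KO libraries and 0.075 CPM in iTreg WT 1 and 3. The marker sum of conventional dendritic cells was lowest in the iTreg libraries numbered 3, at 41.3, 59.4 and 10.2 CPM in iTreg KO and 70.4, 88.7 and 11.9 CPM in iTreg WT. Nearly all of it was H2-Ab1, at 39.8, 58.3 and 8.9 CPM in iTreg KO and 68.3, 84.5 and 10.1 CPM in iTreg WT. Zbtb46 of the same list was not lowest there, at 1.25, 0.951 and 1.19 CPM and 1.58, 3.69 and 1.72 CPM. Neither the Xist reads nor these markers were tested for a part in the pattern.

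The members with the largest spread inside groups were Rtp4, Oas2 and Xaf1 (pooled SD of log2(CPM + 0.5) of 0.77, 0.72 and 0.70). These spreads rest partly on few reads, and counting error was not separated from them. Oas2 had 1, 1 and 11 reads in iTreg KO and 2, 3 and 19 in iTreg WT. In iTreg KO 2, Rtp4 had 3 reads and Xaf1 13. Rtp4, a chaperone of receptor transport, had 1.98, 0.317 and 2.86 CPM in iTreg KO, 1.28, 0.829 and 4.70 CPM in iTreg WT, 35.7, 31.2 and 41.0 CPM in nTreg KO and 32.6, 38.5 and 50.2 CPM in nTreg WT. Xaf1, a pro-apoptotic protein, had 8.87, 1.37 and 8.26 CPM in iTreg KO and 6.23, 4.37 and 8.31 CPM in iTreg WT, and lay between 38.3 and 48.9 CPM in all nTreg libraries. Both varied mostly in iTreg, where iTreg KO 2 was their lowest library. Isg20 ran the other way, with its lowest values in iTreg KO 3 and iTreg WT 3. Ifi35 varied least (0.11).

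**Figure D5:**
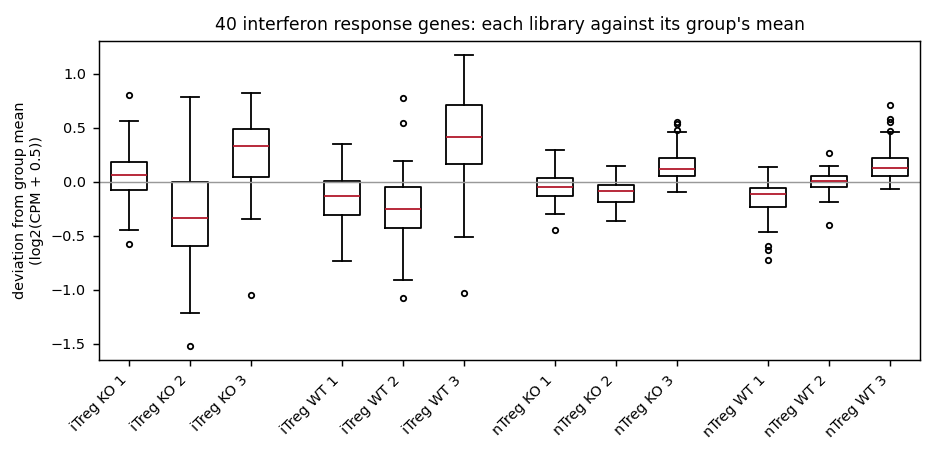
Deviation of each of the 40 members from its group's mean, in log2(CPM + 0.5), for each library (boxes, quartiles; red line, median; whiskers, 1.5 times the box; circles, members beyond). The medians of the libraries numbered 3 were 0.34 (iTreg KO), 0.42 (iTreg WT), 0.12 (nTreg KO) and 0.13 (nTreg WT).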

How the data were processed

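The deposited values are raw read counts, in 1 file per library with 23337 gene symbols; per the submitters' processing notes cutadapt 1.13, STAR, HTSeq 0.6.1p1, DESeq2 and mm10 were used, with roles, annotation and strand setting not given in the sources used here. Counts were tested with edgeR 4.0.16 (R 4.3.3; TMM, minimum count 10, minimum total 15) (quasi-likelihood, robust), 1 term per group over 12 libraries (8 residual degrees of freedom), adjusted by Benjamini-Hochberg over 12038 genes, threshold 0.05. SE is the log2 fold change over the square root of F. Same-numbered KO and WT libraries deviated together (correlations 0.438 to 0.572 in nTreg and 0.307 to 0.629 in iTreg), so the replicate block is given for the label comparisons (4 residual degrees of freedom); iTreg and nTreg libraries did not pair (-0.0539 to 0.0953). Members, lists and tests were chosen with earlier results of these data known. By rule, full values are given per comparison for up to 8 called members of smallest p, or the 4 of smallest p where fewer than 4 were called, and for the 3 members of largest within-group spread. From each of the other lists up to 4 called genes of smallest p are named per comparison, with Ifnar1, Ifnar2, Jak1, Tyk2, Irf3 and Syvn1 among those always named; 1 gene is not reported here. Other genes named with values were chosen after their values were seen. The test was tried on simulated data. Alternatives were RLE, no filter, DESeq2 1.42.0, the block, 6 libraries and libraries left out. Gene positions are from GENCODE M21; 11 of the 40 members share exon bases with a gene on the opposite strand.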

Additional observations from a re-analysis of the deposited data

How the results depend on the processing

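Between iTreg and nTreg the counts of members called stayed within 31 to 35 lower (KO label) and 32 to 35 lower (WT label), with 1 higher, in every setting tried; the medians of -1.90 and -2.17 lay between -2.15 and -1.67 and between -2.54 and -1.95 when 1 library was left out, and the WT-label median was -1.86 without the 3 libraries with Xist reads. There the block within a label called 33 (adding Isg20) and 34 (adding Trim25) lower; the numbers did not pair these samples. In nTreg, KO against WT, members called rose to 9 lower and 1 higher with the 6 libraries alone and to 7 lower and 1 higher with the replicate block, and stayed at 0 in the other settings. The median of -0.28 was -0.34 to -0.16 with a library left out. All genes called there, 304, were 496 with DESeq2, 1142 with the 6 libraries, 1083 with the block, 103 without both nTreg libraries numbered 2, 71 without the Xist libraries, and 167 to 216 with 1 library left out. In iTreg 1 member was higher with DESeq2 and 1 with the block, and 0 to 1 with a library left out; all genes called, 22, were 99 with DESeq2, 0 with the 6 libraries, 114 with the block, 0 without the Xist libraries and 0 to 64 with a library left out; the median of 0.14 was -0.12 without the Xist libraries and -0.16 to 0.38 with a library left out. For the difference, DESeq2 called 2 members higher; all genes called, 35, were 140 with DESeq2, 217 with the block, 1 without the nTreg libraries numbered 2, 1 without the Xist libraries and 1 to 58 with a library left out, and the median of 0.24 was 0.05 to 0.57. The cause of these changes was not tested, but the block and the 6 libraries estimate the spread from fewer residual degrees of freedom (4), and 6 libraries without iTreg spread. RLE and no filter moved no member across the threshold. No direction reversed among called members. With totals of 6763458 to 15462894 reads, members with under 10 reads in an iTreg group (Oas1a, Oasl1, Rsad2 and Ifi44) give no firm fold.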
